A study of Homo sapiens with 6 samples.

Results

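The genes described here encode the machinery that mends broken DNA and protects stalled replication forks. They are 49 genes of homologous recombination, the Fanconi anaemia pathway, the checkpoint kinases and non-homologous end joining, together with TONSL and its partner MMS22L. They were chosen by symbol, from known function, and all 49 were found among the 24526 genes of the count table. Earlier results of these data were known when they were chosen. All 49 also passed edgeR's filter on low counts, which left 16297 genes to be tested. The cells were WM266.4, an established human melanoma line. Its cultures received either an siRNA against RIPK4 (RIPK4.si, n = 3 libraries) or a non-targeting control siRNA (neg.si, n = 3 libraries), and RNA was taken 48 h later. RIPK4 is a serine/threonine kinase of the receptor-interacting protein family. Both groups were transfected, so the control carries the effects of transfection itself. The knockdown was transient, in a single cell line, and rested on 1 siRNA product, so effects of that siRNA on other transcripts cannot be told apart from the loss of RIPK4.

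A break in both strands of DNA can be rejoined directly, which is end joining, or copied from the sister chromatid, which is homologous recombination. In recombination the ends are first trimmed to single strands. BRCA2 and its helpers then prepare these strands to invade the matching sequence, and helicases and nucleases finally separate the joined molecules. The Fanconi proteins detect crosslinks between the strands, attach ubiquitin to FANCD2 and FANCI, and hand the lesion to nucleases and recombination. TONSL is a scaffold protein that recognises newly made histone H4 behind the replication fork, and with MMS22L it promotes recombination at forks that have stalled. ATM, ATR, CHEK1 and CHEK2 are kinases that hold the cell cycle while damage remains. Many of these genes are transcribed mainly in proliferating cells, where E2F factors act on their promoters.

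Counts on genes totalled between 28464057 and 31688095 per library, and mitochondrial genes took 9.61% to 13.37% of them. A level in CPM is a count divided by the TMM-normalized size of its library and scaled up. Differences are given as log2 fold change of RIPK4.si over neg.si from the edgeR fit, with adjusted p over all 16297 genes. RIPK4 itself was at 26.8% of its control level, with 85.8, 76.5 and 54.7 CPM in neg.si and 19.9, 16.7 and 21.5 CPM in RIPK4.si (log2 fold change -1.90 ± 0.203 SE, edgeR adjusted p = 0.0102). Replicates of a group differed by far more than sampling noise, with a chi-square per degree of freedom of 16.4 to 117. On the first principal component, which held 44.9% of the variance, neg.si replicate 3 stood apart from the other libraries. Of 10 melanocyte markers all 10 were expressed, with MITF at 291 to 396 CPM, and edgeR called 1 of them, PMEL, lower in RIPK4.si (adjusted p = 0.0111, and up to 0.129 with each library left out). DESeq2 called 3 lower, PMEL, DCT and TYR. Of the 10 markers 5 had a fit above 0 and 5 below, with a median log2 fold change of -0.05. The summed level of the 10 was 3610 to 4040 CPM in neg.si and 2680 to 2790 CPM in RIPK4.si, and the part of this difference in the results that follow was not tested. In bulk RNA, fewer cells of a type or phase and less RNA per cell cannot be told apart. Of the keratinocyte, fibroblast, leukocyte and endothelial markers in the table, KRT10 lay between 10.2 and 16.1 CPM and COL1A2 between 510 and 1040 CPM, and every other one stayed at or below 2.43 CPM. KRT5 and KRT14 were at 0 in 4 of the 6 libraries.

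TONSL was the member that rose. Its gene spans chromosome 8 from 144428775 to 144444440 (GRCh38, minus strand). Its level was 18.3, 11.7 and 12.5 CPM in the neg.si libraries (counts of 567, 350 and 396) and 27.8, 32.5 and 30.4 CPM in the RIPK4.si libraries (counts of 817, 939 and 947), in the order of the replicate numbers, which is kept throughout. The groups did not overlap, and the lowest RIPK4.si library was well above the highest control. The means were 14.1 ± 3.63 CPM and 30.3 ± 2.33 CPM (SD, n = 3 each), a 2.14-fold difference with a 95% interval of 1.56 to 2.94. The log2 fold change was 1.10 (SE 0.203, 95% interval 0.64 to 1.55). The adjusted p of 0.0497 from edgeR placed TONSL in rank 125 of the 125 genes called at 0.05, the last in the list, whereas DESeq2 gave a log2 fold change of 1.11 with an adjusted p of 0.000224. A two-sided exact permutation test of its log2 CPM gave p = 0.1, the smallest that 3 libraries against 3 allow. The log2 fold change lay between 0.99 and 1.34 under the alternatives run, each library left out in turn included, but the edgeR call was lost under some of them. The adjusted p became 0.0522 when edgeR took its scaling from DESeq2 and 0.0549 with at least 10 counts required in every library. It became 0.317 without neg.si replicate 2 and 0.184, 0.179 and 0.298 without RIPK4.si replicates 1, 2 and 3.

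TONSL transcripts are rich in G and C (63.6% in the longest annotated transcript), and the libraries differed in how counts followed GC content. The rank correlation of a library's level with GC, across genes and relative to the mean of all libraries, was 0.555, 0.0815 and -0.547 in the controls and -0.0525, 0.165 and -0.0788 in RIPK4.si. The control with the highest TONSL level was replicate 1, which also had the highest such correlation. With the GC trend of each library removed, the log2 fold change of TONSL was 1.08 (SE 0.152) and the edgeR adjusted p 0.00919. Strand was ignored in the counting, and 59 exonic bases of TONSL are shared with TONSL-AS1 on the opposite strand. TONSL-AS1 had between 2 and 8 counts in every library.

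**Figure D1:**
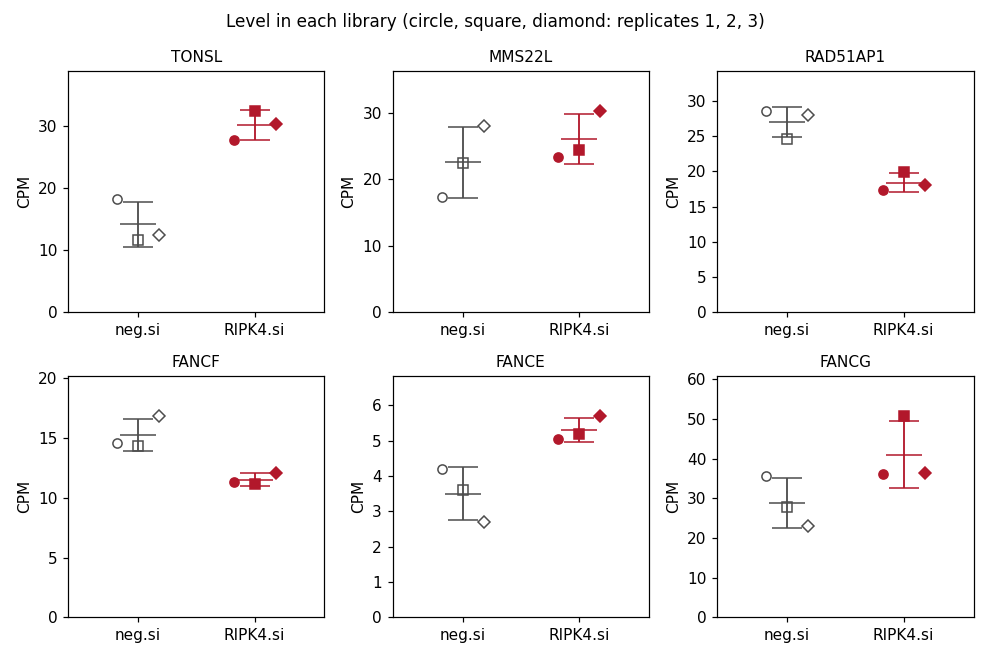
Levels in CPM of TONSL, MMS22L, RAD51AP1, FANCF, FANCE and FANCG in each of the 6 libraries, 1 panel per gene, with circles, squares and diamonds for replicates 1, 2 and 3 and bars for mean ± SD (n = 3). The groups overlap for MMS22L and for no other gene shown, with the widest separation for TONSL, at 11.7 to 18.3 CPM in neg.si and 27.8 to 32.5 CPM in RIPK4.si.

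MMS22L, the partner of TONSL, lies on chromosome 6 from 97142161 to 97283217 on the minus strand. Its levels were 17.3, 22.5 and 28 CPM in neg.si and 23.4, 24.5 and 30.3 CPM in RIPK4.si, so the groups overlapped. The log2 fold change was 0.21 (95% interval -0.26 to 0.67), so a doubling lay outside the interval. Per kilobase of canonical transcript, TONSL and MMS22L were close to each other in neg.si, at 3.12 ± 0.801 and 2.64 ± 0.626 CPM per kilobase. In RIPK4.si they stood at 6.68 ± 0.515 and 3.04 ± 0.432 CPM per kilobase. The ratio of TONSL to MMS22L on this scale was 2.01, 0.98 and 0.842 in neg.si and 2.25, 2.51 and 1.9 in RIPK4.si. Because neg.si replicate 1 had a ratio above that of RIPK4.si replicate 3, the 2 groups overlapped (two-sided exact permutation test, p = 0.2). This was 1 of 7 such pairs of proteins that act together. BRCA1 over BARD1, RAD51C over XRCC3, RAD51D over XRCC2, FANCD2 over FANCI, MUS81 over EME1 and XRCC6 over XRCC5 overlapped between groups as well, and adjusted over the 7 pairs the exact p ranged from 0.933 to 1.0.

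Few of the 49 members passed a test, and most fits lay slightly above 0. edgeR called 1 of 49 (2.04%), TONSL, against 0.767% of all genes tested. Earlier results of these data were known when TONSL was chosen, so this share is no independent support. DESeq2 called the same 1, against 2.91%, and so did edgeR with the GC trend removed, against 2.98%. At an unadjusted p under 0.05, 3 members were higher (TONSL, FANCE and FANCG), or 6.12% against 4.85% of all genes, and 2 were lower (RAD51AP1 and FANCF), or 4.08% against 6.0%. The 3 RIPK4.si libraries lay above all 3 controls in 8 members, or 16.3% against 8.23% of all genes, and below them in 2, or 4.08% against 9.4%. The higher 8 were TONSL, FANCE, FANCG, FANCA, FANCC, RAD54L, RBBP8 and EXO1. The fit was higher in RIPK4.si for 38 members and lower for 11, that is higher in 77.6% of members and 46.6% of all genes. The members were measured in the same 6 libraries and are not independent of each other. The median log2 fold change was 0.09 with or without TONSL, against -0.02 over all genes. Added up over the members, CPM came to 3331, 3606 and 3812 in the controls and to 3557, 3606 and 3614 in RIPK4.si, so the total did not separate the groups.

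The intervals say how much change the data allow. For 45 of the 49 members the 95% interval lay within a 2-fold change in either direction, and for 22 within 1.5-fold. The 4 members whose interval reached a doubling were TONSL, BRCA2, XRCC2 and FANCE, and no member's interval reached a halving. A limma voom fit that weights the libraries by their estimated quality called 9 members (18.4%), and it called 23.0% of all genes. Those 9 were TONSL, FANCE, FANCG, FANCA, FANCC, SLX4, WRN, BRCA2 and, as the only lower one, RAD51AP1. The weights of this fit were uneven, at 0.469, 6.08 and 0.259 for the controls and 1.1, 0.381 and 3.25 for RIPK4.si.

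**Figure D2:**
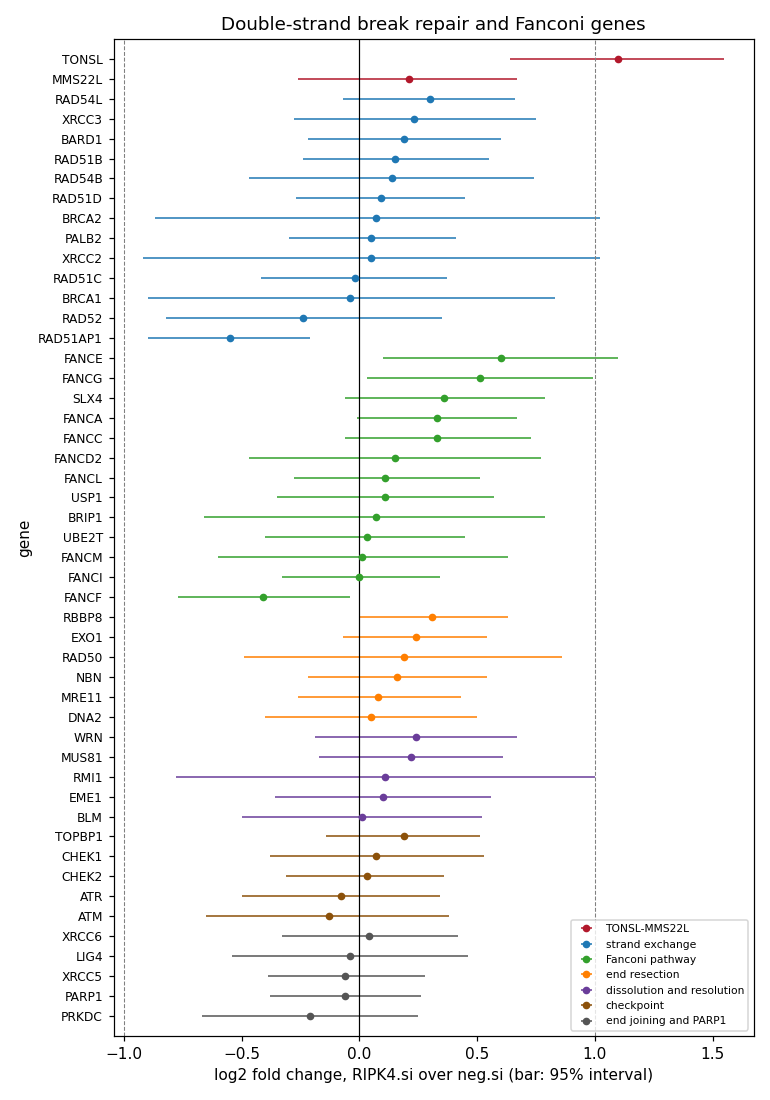
Log2 fold change of RIPK4.si over neg.si for the 49 members, from the edgeR fit, with bars for the 95% interval, colours for roles and dashed lines at a 2-fold change. TONSL, at 1.10, is the only point beyond 1, and RAD51AP1, at -0.55, is the lowest.

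Among the 13 strand exchange genes, which act in strand invasion, the fit was higher for 9 and lower for 4, with a median log2 fold change of 0.07 and 0 called by edgeR or DESeq2 (1 at an unadjusted p under 0.05). That gene was RAD51AP1, a DNA-binding protein that stimulates strand invasion. It lies on chromosome 12 from 4538798 to 4560048 on the plus strand. Its levels were 28.6, 24.6 and 28 CPM in neg.si and 17.3, 19.9 and 18.1 CPM in RIPK4.si. Every RIPK4.si library was lower than every control, with means of 27.0 ± 2.15 and 18.4 ± 1.30 CPM (SD, n = 3). The log2 fold change was -0.55 (SE 0.154, 95% interval -0.90 to -0.21). It did not pass the adjustment over all genes (edgeR adjusted p = 0.179, DESeq2 0.1), and with each library left out the log2 fold change stayed between -0.60 and -0.49. With quality weights it passed, at an adjusted p of 0.00422. RAD51AP1 has an AT-rich transcript (36.1% GC), and its coefficient of variation was 7.97% in neg.si and 7.05% in RIPK4.si.

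No other strand exchange gene had an unadjusted p under 0.05 in edgeR, and the fit with quality weights also called BRCA2 (log2 fold change 0.57, adjusted p = 0.0328). BRCA1, the ubiquitin ligase that directs breaks to recombination, stood at 37.1 ± 16.9 CPM in neg.si and 36.2 ± 15.6 CPM in RIPK4.si. BRCA2, which acts on the single strands, stood at 14.1 ± 9.73 and 14.8 ± 3.68 CPM. XRCC2, the partner of RAD51D, had 10.6 ± 5.98 and 11 ± 4.80 CPM. These 3 genes had the widest intervals of the group, reaching from a log2 fold change of -0.92 to 1.02 for XRCC2. BARD1, the partner of BRCA1, and PALB2, the bridge between BRCA1 and BRCA2, had intervals of -0.22 to 0.60 and -0.30 to 0.41. The related genes RAD51B, RAD51C and RAD51D lay at 0.15, -0.02 and 0.09 on the log2 scale, each with an interval within a 1.5-fold change. RAD52, a mediator of strand annealing, had 5.51 ± 1.31 and 4.68 ± 1.17 CPM. RAD54L, a motor that remodels the joint molecule, had 13.2 ± 0.404 CPM in neg.si and 16.3 ± 1.75 CPM in RIPK4.si without overlap (log2 fold change 0.30, interval -0.07 to 0.66). LRRC41, which shares 813 exonic bases with RAD54L on the other strand, stood at 64.6 to 108 CPM in neg.si and 82.1 to 130 CPM in RIPK4.si. XRCC3, the RAD51C partner, shares 5756 exonic bases with KLC1 on the other strand, and RAD54B, a relative of RAD54L, shares 3511 with FSBP on its own strand, so their log2 fold changes of 0.23 and 0.14 are uncertain.

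Of the 13 Fanconi genes 12 had a fit above 0, with a median log2 fold change of 0.11, and edgeR and DESeq2 called 0 (3 at an unadjusted p under 0.05 in edgeR). FANCE, the subunit of the core complex that binds FANCD2, lies on chromosome 6 from 35452356 to 35467103. It had 4.20, 3.60 and 2.71 CPM in neg.si and 5.04, 5.19 and 5.69 CPM in RIPK4.si. Its counts were low, between 86 and 177, and the log2 fold change of 0.60 had an interval from 0.10 to 1.10 (edgeR adjusted p = 0.337). FANCG, a scaffold subunit of the core complex, lies on chromosome 9 from 35073835 to 35080016. Its levels were 35.7, 27.9 and 23.1 CPM in neg.si and 36.1, 50.7 and 36.3 CPM in RIPK4.si. The groups were barely separate, since the highest control lay just below the lowest RIPK4.si library (log2 fold change 0.51, interval 0.03 to 0.99, edgeR adjusted p = 0.423). With each library left out, the log2 fold change of FANCG ran from 0.33 (without RIPK4.si replicate 2) to 0.71. FANCF, the adaptor that holds the core complex together, lies on chromosome 11 from 22622890 to 22625841 and was the lower one. It had 14.6, 14.3 and 16.8 CPM in neg.si and 11.3, 11.1 and 12.1 CPM in RIPK4.si (log2 fold change -0.41, interval -0.77 to -0.04, edgeR adjusted p = 0.384). Subunits of the same complex thus stood on both sides of 0.

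None of the other Fanconi members had an unadjusted p under 0.05 in edgeR. FANCA, the partner of FANCG in the core complex, had 33.2 ± 3.94 CPM in neg.si and 41.7 ± 0.650 CPM in RIPK4.si, and FANCC, which binds FANCE, had 8.20 ± 0.848 and 10.3 ± 0.746 CPM. Both were without overlap between groups, with log2 fold changes of 0.33 and intervals that reached just below 0. FANCA shares 2409 exonic bases with ZNF276 on the other strand, which had 6.59 to 7.90 CPM in neg.si and 6.47 to 11.9 CPM in RIPK4.si. The ubiquitin ligase FANCL and its conjugating enzyme UBE2T had log2 fold changes of 0.11 and 0.03, and the translocase FANCM one of 0.01. The substrates FANCD2 and FANCI gave 27.9 ± 8.93 against 30.9 ± 8.52 CPM and 114 ± 13.9 against 115 ± 7.26 CPM. USP1, which removes the ubiquitin again, had a log2 fold change of 0.11, and the helicase BRIP1 one of 0.07 with an interval from -0.66 to 0.79. SLX4, the platform for the nucleases that cut out a crosslink, had 11.5 ± 0.663 and 14.8 ± 2.75 CPM, and the groups overlapped.

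All 6 resection genes had a fit above 0 (median log2 fold change 0.17, lowest 0.05, highest 0.31), with 0 called by edgeR or DESeq2 and 0 at an unadjusted p under 0.05. Resection by MRE11, RAD50 and NBN starts the trimming, RBBP8 (CtIP) activates it, and EXO1 and DNA2 extend it. RBBP8 had 50.1 ± 2.61 CPM in neg.si and 62.2 ± 4.07 CPM in RIPK4.si, and EXO1 53.6 ± 1.02 and 63.1 ± 2.23 CPM, both without overlap. Their intervals were 0.00 to 0.63 and -0.07 to 0.54 on the log2 scale. RAD50 had the lowest level of all members per kilobase, 0.149 ± 0.0385 and 0.170 ± 0.0261 CPM per kilobase. It had 34, 48 and 32 counts in neg.si and 44, 45 and 36 in RIPK4.si, or 1.10, 1.6 and 1.01 CPM and 1.5, 1.56 and 1.16 CPM. MRE11 and NBN, the other subunits of this complex, stood at 44.9 ± 5.65 and 89.6 ± 17.0 CPM in neg.si, and their log2 fold changes were 0.08 and 0.16. The helicase and nuclease DNA2 had 16.3 ± 3.69 CPM in neg.si and 16.9 ± 1.74 CPM in RIPK4.si. An annotated gene on the same strand shares 8124 exonic bases with RAD50, whose canonical transcript has 8272 bases. How read pairs that fall on both genes were counted is not stated, so the level of RAD50 transcripts is uncertain. The 95% interval of its difference ran from 0.712-fold to 1.82-fold.

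The 5 dissolution and resolution genes also lay above 0 throughout, with log2 fold changes between 0.01 and 0.24 and 0 called by edgeR or DESeq2 (0 at an unadjusted p under 0.05). The helicases BLM and WRN gave 22.0 ± 6.36 against 22.1 ± 2.40 CPM and 19.2 ± 4.33 against 22.7 ± 1.26 CPM. RMI1, a partner of BLM in separating joined molecules, had 8.05 ± 3.79 and 8.69 ± 3.67 CPM. The nuclease subunits MUS81 and EME1, which cut such molecules, had log2 fold changes of 0.22 and 0.10. Of the 5 checkpoint genes 3 had a fit above 0 and 2 below, again with 0 called by edgeR or DESeq2 and 0 at an unadjusted p under 0.05. ATM and ATR, the kinases that sense breaks and single strands, had log2 fold changes of -0.13 and -0.08, with ATM at 270 ± 88.1 and 247 ± 27.0 CPM. TOPBP1, the activator of ATR, had a log2 fold change of 0.19, and the effector kinases CHEK1 and CHEK2 had 0.07 and 0.03. The interval of CHEK2 was -0.31 to 0.36 on that scale.

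The end joining factors XRCC6 and XRCC5 and PARP1, the sensor of DNA nicks, were the members of highest level per kilobase. XRCC6, the Ku70 subunit that caps broken ends, had the highest level per kilobase, 310 ± 38.9 CPM per kilobase in neg.si and 320 ± 41.5 in RIPK4.si. Its values were 728, 681 and 567 CPM in neg.si and 651, 778 and 608 CPM in RIPK4.si (log2 fold change 0.04, interval -0.33 to 0.42). XRCC5, which pairs with it as Ku80, followed at 197 ± 10.5 CPM per kilobase in neg.si, and PARP1 at 57.6 ± 3.74. XRCC6 and XRCC5 were apart from each other and from the rest by more than their SDs, whereas PARP1 and UBE2T (55.2 ± 9.05) were not apart. The ligase LIG4 and PRKDC, the kinase that Ku recruits, had log2 fold changes of -0.04 and -0.21, and XRCC5 and PARP1 each -0.06. Of these 5 genes 4 had a fit below 0, with 0 called by edgeR or DESeq2 and 0 at an unadjusted p under 0.05. Ordered by the neg.si level per kilobase, 43 of the 48 pairs of neighbours were within their SDs. The 5 steps beyond them came below XRCC6, XRCC5, UBE2T, PRKDC (36.7 ± 5.84) and BRCA2 (1.18 ± 0.814). The last was the step down to RAD50, whose level is uncertain.

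**Figure D3:**
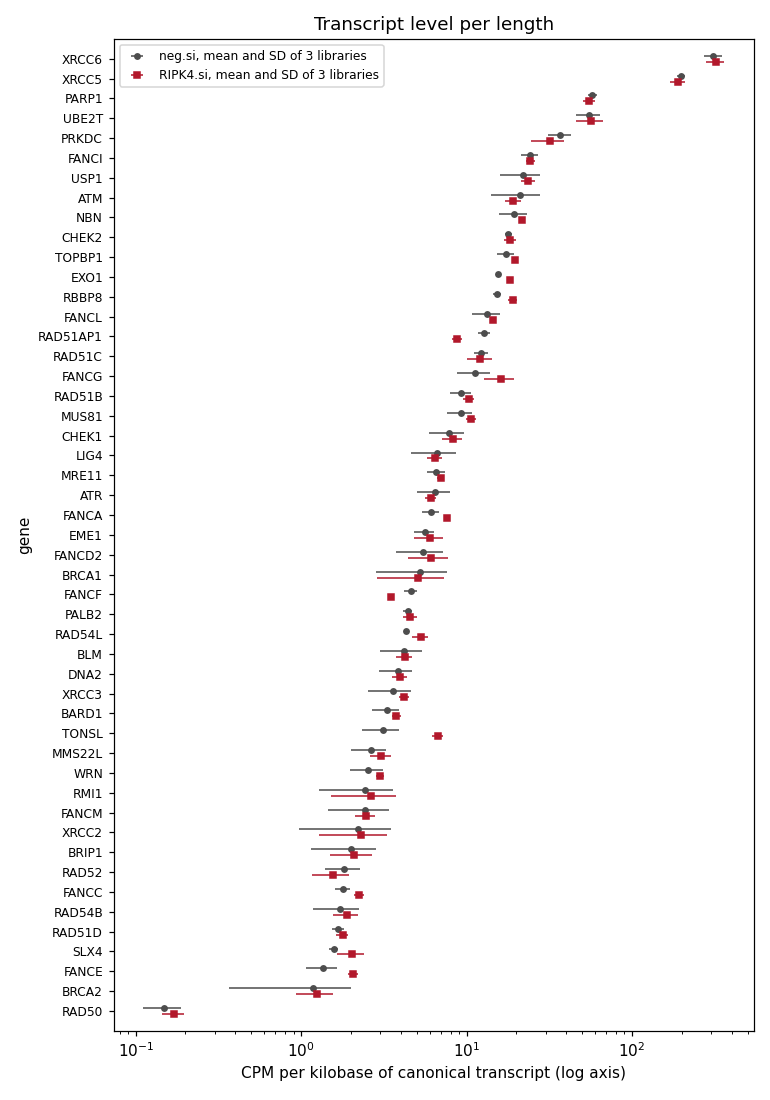
Level of each member in CPM per kilobase of canonical transcript (log axis), mean and SD of 3 libraries, for neg.si (grey circles) and RIPK4.si (red squares), ordered by the neg.si mean. Levels run from 310 for XRCC6 to 0.149 for RAD50, whose level is uncertain. The marks of the 2 groups lie close together for most genes, with TONSL, FANCE and RAD51AP1 among the exceptions.

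Replicates of a group differed widely for several members. In neg.si, replicate 3 was the highest library for 30 of 49 members (61.2%, against 43.1% of all genes tested) and replicate 1 the lowest for 29 (59.2%, against 41.0%). The median difference of replicate 3 over replicate 1 was 0.34 on the log2 scale for the members and 0.01 for all genes. BRCA2 (36.4% GC) differed most and was 1.86 higher in replicate 3 than in replicate 1 on the log2 scale, XRCC2 (40.0% GC) 1.51, RMI1 (36.0% GC) 1.35 and BRCA1 (42.8% GC) 1.21. The spread of 3 of these was about as wide in RIPK4.si, with coefficients of variation of 43.6% for XRCC2, 42.2% for RMI1 and 43.3% for BRCA1 there, against 56.3%, 47.0% and 45.4% in neg.si. FANCL, the member with the lowest GC content (33.1%), was 0.47 higher, and RAD51AP1 showed almost no difference. TONSL and XRCC3, the members richest in GC, were lower in replicate 3. Across the 49 members the rank correlation of this difference with GC content was -0.666, and across all genes -0.633, over genes that share the same pair of libraries and are not independent. The members had a median GC content of 42.3%, against 47.9% for all genes. The median coefficient of variation of the members was 19% in neg.si and 10.3% in RIPK4.si, against 20.9% and 15% for all genes. The members' median log2 fold change was 0.24 when neg.si replicate 3 was left out and 0.04 when replicate 1 was, although single members moved either way. With each library left out, the log2 fold change of MMS22L ran from 0.06 (without neg.si replicate 1) to 0.39. Without neg.si replicate 3, MMS22L went from 0.21 to 0.39 and TONSL from 1.10 to 1.02 on the log2 scale. In that setting 21 members did not overlap between groups (42.9%, against 31.1% of all genes), and without neg.si replicate 1 it was 16 (32.7%, against 31.7%).

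**Figure D4:**
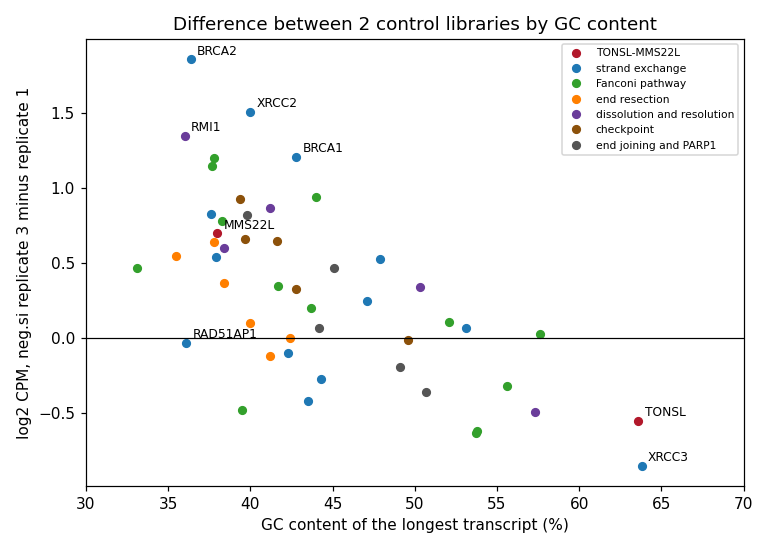
Difference in log2 CPM between neg.si replicate 3 and neg.si replicate 1 for each member against the GC content of its longest transcript, coloured by role. Points fall from 1.86 for BRCA2 at 36.4% GC to below 0 for TONSL at 63.6% GC, and RAD51AP1 lies near 0 despite its 36.1% GC.

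**Figure D5:**
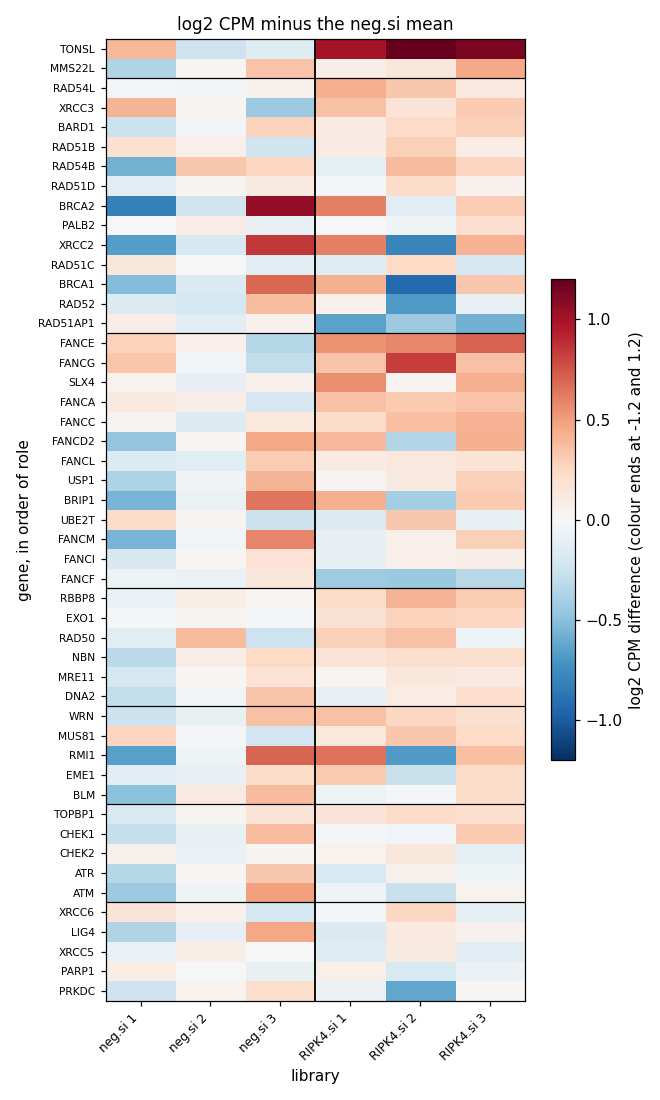
Log2 CPM of each member in each of the 6 libraries, minus the neg.si mean of that gene, with members in order of role and the 2 groups divided by a line. TONSL is raised in all 3 RIPK4.si libraries and RAD51AP1 and FANCF are lowered in all 3, while BRCA2, XRCC2, BRCA1 and RMI1 vary within the groups.

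Promoter sequences were read from RefSeq windows (GRCh38.p14) reaching from 250 bases before to 50 bases after a gene's start, which were given for 41 members. The other members were TONSL, RAD54B, FANCI, NBN, DNA2, WRN, XRCC5 and PRKDC. The letters TTTCCCGC, TTTCGCGC, TTTGCCGC or TTTGGCGC, forms of the E2F motif, were found on either strand in 8 of the 41 (19.5%) and in 4.88% of the 13157 windows given. The 8 were XRCC2, FANCA, FANCC, FANCD2, EXO1, RMI1, TOPBP1 and XRCC6. The CHR motif TTTGAA was found in 4 (9.76%, against 10.3% of all windows) and CCAAT in 18 (43.9%, against 36.2%). A match is a description of letters, not evidence of binding. The median log2 fold change was 0.17 for the 8 members with an E2F match and 0.07 for the 33 without. RAD51AP1, FANCE, FANCF and FANCG had no E2F match in their windows. The E2F matches of 5 of these 8 members are shown as examples, with the motif letters in capitals as read on the strand of the gene. This motif is common in genes of DNA replication and repair. In XRCC2 and EXO1 the match lies after the start. Starts are those of RefSeq and can lie inside the span that other annotations give a gene.
XRCC2, chr7:152676102-152676131, minus strand: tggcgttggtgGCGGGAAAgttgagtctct
FANCA, chr16:89816801-89816830, minus strand: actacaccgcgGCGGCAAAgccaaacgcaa
FANCD2, chr3:10026424-10026453, plus strand: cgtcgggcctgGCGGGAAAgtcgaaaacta
EXO1, chr1:241848197-241848226, plus strand: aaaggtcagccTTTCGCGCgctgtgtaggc
TOPBP1, chr3:133661930-133661959, minus strand: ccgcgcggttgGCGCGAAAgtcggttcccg
In XRCC2 and FANCD2 the letters are GCGGGAAA, the reverse complement of TTTCCCGC. Neither edgeR nor DESeq2 called any of these 5 genes, the fit with quality weights called FANCA, and EXO1 and FANCA were the ones whose groups did not overlap. FANCC, not shown, had 2 matches and no overlap between groups, and the fit with quality weights called it (limma voom adjusted p = 0.00638).

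An earlier re-analysis of the deposited counts, not the study itself, had picked the letters ACAGCTT in 3′ untranslated regions as going with lower levels in RIPK4.si, so their count here is no independent support. They were found in the longest annotated 3′ untranslated region (GENCODE release 44) of 11 of the 49 members (22.4%), against 16.0% of the 12963 tested genes with such a region. Members with the letters had a median log2 fold change of 0.07 and those without 0.11. RAD51AP1, the lowest member, was the only one with 2 copies, which begin at bases 36 and 820 of its untranslated region. Both are printed with the letters in capitals (GRCh38, plus strand).
RAD51AP1 first copy, chr12:4559018-4559046: ttgggagaatcACAGCTTtacaagggtgt
RAD51AP1 second copy, chr12:4559802-4559830: tatgagatagtACAGCTTttcaggaagct
The other 10 members with the letters, among them BRCA1, RAD51C, MRE11 and CHEK1, had log2 fold changes between -0.04 and 0.24.

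The wider repair network, taken from lists of known function, gave few differences. Of 60 further genes of recombination, Fanconi repair and end joining 59 were tested, and edgeR and DESeq2 called 0. At an unadjusted p under 0.05 FAAP24, a Fanconi core partner of FANCM, was higher (log2 fold change 0.57, edgeR adjusted p = 0.283), and NHEJ1, an end joining factor, was lower (-0.62, edgeR adjusted p = 0.308). Of 18 genes of checkpoint signalling edgeR and DESeq2 called 0, with 2 higher (CDC25A and TIMELESS) and 1 lower (CDKN1A) at an unadjusted p under 0.05. The phosphatase CDC25A, which releases the cell cycle that CHEK1 holds, had 20.6, 16.8 and 15.4 CPM in neg.si and 24.9, 31.4 and 25.2 CPM in RIPK4.si (log2 fold change 0.63, edgeR adjusted p = 0.191). CDKN1A, the inhibitor that p53 induces after damage, had 359, 321 and 227 CPM in neg.si and 154, 230 and 190 CPM in RIPK4.si (-0.66, edgeR adjusted p = 0.258). Of 28 tested genes of mismatch and excision repair edgeR and DESeq2 called 0, with 0 at an unadjusted p under 0.05, and UNG came closest, at an unadjusted p of 0.0565 from edgeR.

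The 17 listed genes of the replication fork and its histones had a median log2 fold change of 0.23, with 14 above 0. They are histone chaperones, MCM helicase subunits, RPA subunits and the histone H4 methyltransferase KMT5A. edgeR called 0 of them, with 1 higher and 1 lower at an unadjusted p under 0.05. DESeq2 called MCM6, a subunit of the replicative helicase, at 104, 95.2 and 93.6 CPM in neg.si and 141, 147 and 133 CPM in RIPK4.si (log2 fold change 0.52, DESeq2 adjusted p = 0.048, edgeR adjusted p = 0.144). SUPT16H, a subunit of the histone chaperone FACT, was the lower one (-0.41, edgeR adjusted p = 0.333). Of 20 S phase markers, several of them also in that list, 20 had a fit above 0, with a median log2 fold change of 0.27. edgeR called 0 and DESeq2 1 of them, and 2 were higher at an unadjusted p under 0.05 (MCM6 and CCNE2). Their summed level was 1350 to 1650 CPM in neg.si and 1730 to 1930 CPM in RIPK4.si, without overlap, as for TONSL. The 19 tested G2/M markers had a median log2 fold change of 0.11 and overlapping sums, 1970 to 2260 and 2140 to 2280 CPM, with 0 called by edgeR or DESeq2 and 0 at an unadjusted p under 0.05 (UBE2C came closest, at an unadjusted edgeR p of 0.149). The part of the share of cells in S phase in the values of TONSL and the other members was not tested. Over the 6 lists of repair, fork and cell cycle genes, the fit with quality weights called between 1 of 28 tested (mismatch and excision repair) and 9 of 20 (S phase). It called 5 of the 17 genes of the fork and its histones, and 23.0% of all genes.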

How the data were processed

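RNA of WM266.4 cells was measured in 6 libraries, 3 neg.si and 3 RIPK4.si, which the study describes as biological replicates. Poly(A) libraries were read in pairs on a BGISEQ-500 instrument. Per the study's methods and processing notes, adapters were cut with Cutadapt, reads were mapped to GRCh38.p13 by TopHat, and HTSeq assigned read pairs to genes without strand. The deposited count values, made by the authors, are these whole numbers, not normalized. The table also holds the authors' size-factor-scaled values and their DESeq2 results, which were not used.

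Counts were fitted with edgeR 4.0.16 in R 4.3.3 (TMM, filterByExpr, quasi-likelihood test, Benjamini-Hochberg over all 16297 genes tested, calls at 0.05). Alternatives were DESeq2 1.42.0, other normalizations and filters, a replicate block, limma 3.58.1 voom with sample quality weights, removal of each library's GC trend (lowess, span 0.3) and each library left out. Lengths are those of GENCODE release 44 canonical transcripts. Per-library values are given for members with a p under 0.05, MMS22L, and the members highest and lowest per kilobase, and of each list of repair, fork and cell cycle genes the gene of smallest p is named. NHEJ1, TIMELESS, CDKN1A, SUPT16H, CCNE2 and the marker genes were named after their values were seen. Some genes of these lists are not reported here. The members and lists were chosen with earlier results of these data known. Libraries were of about equal depth. Permutation tests used scipy 1.17.1, and plots matplotlib 3.10.9 in Python 3.11.15.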

Additional observations from a re-analysis of the deposited data

How the results depend on the processing

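The values above depended on single libraries and on the model more than on normalization. The number of genes called over the whole table was 437 with DESeq2, 3741 with limma voom and quality weights, 484 with the GC trend removed and 434 with that and the replicate block together, and it ran from 0 to 295 with each library left out. It was 0 without neg.si replicate 2, RIPK4.si replicate 1 or RIPK4.si replicate 3, where edgeR gave 1153, 1426 and 1086 genes an unadjusted p under 0.05. The number of members called was 0 when edgeR took its scaling from DESeq2 and with at least 10 counts in every library (6 members, 12.2%, at an unadjusted p under 0.05 in each, against 10.8% and 11.2% of all genes), and 9 with quality weights. With each library left out it ran from 0 to 1, being 1 without neg.si replicates 1 or 3 and 0 otherwise. Members at an unadjusted p under 0.05 numbered 27 with quality weights (55.1%, against 36.8% of all genes), 9 with the GC trend removed (18.4%, against 15.7%) and 2 to 7 with each library left out (4.08% to 14.3%, against 6.48% to 14.3%). The members' median log2 fold change ran from 0.04 to 0.24, and the number without overlap from 11 to 21 (22.4% to 42.9%, against 21.4% to 31.7% of all genes), with each library left out. Of the further pathway genes DESeq2 called 1 and the fit with quality weights 24, and edgeR called 0 with each library left out, as with all 6. Of all genes, DESeq2 called 2.91% and the fit with quality weights 23.0%. By list, which share some genes, quality weights called 7 of 59 (recombination, Fanconi, end joining), 3 of 18 (checkpoint) and 5 of 17 (fork). They called 1 of 28 (mismatch and excision repair), 9 of 20 (S phase) and 2 of 19 (G2/M). The log2 fold change of TONSL was 1.11 with that scaling, 1.10 with at least 10 counts and 0.99 to 1.34 with each library left out, and that of RIPK4 -2.06 to -1.74. The RIPK4 adjusted p rose to at most 0.106 with each library left out. With quality weights 8 members, called by neither fit, had a log2 fold change of the other sign, among them XRCC6 (-0.11) and RAD50 (-0.28), and XRCC6 ran from -0.06 to 0.14 with each library left out. The cause of these shifts was not tested.

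Replicate numbers were shared between the groups, but deviations of same-numbered libraries correlated at -0.242, 0.251 and 0.346, so the numbers were not taken to pair the cultures. With a replicate block 131 genes and 1 member were called, 4 members had an unadjusted p under 0.05 (8.16%, against 10.6% of all genes), and TONSL had a log2 fold change of 1.12 (edgeR adjusted p = 0.0482). The median of the members was 0.10 and 10 did not overlap (20.4%, against 17.6%), RIPK4 stayed at -1.88, and the block changed no call among the members. At 32 to 48 counts a library the log2 fold change of RAD50 had a standard error of 0.3, and those of XRCC2 and BRCA2, with more counts, had 0.431 and 0.420.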
